A study of Mus musculus with 6 samples.

Results

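The genes described here are Acod1, which encodes the enzyme that makes itaconate, and 8 genes of citric acid cycle enzymes and their cytosolic counterparts, Cs, Aco1, Idh1, Idh2, Idh3a, Ogdh, Mdh1 and Mdh2. They were chosen by name as 9 of the 15415 genes listed for PEMs, with succinate dehydrogenase left out of the set, and all 9 were among the 9030 genes tested. In PEMs of the Tim-4 knockout, Idh1 RNA was at 0.414 of its Control level, Acod1 was among the most abundant RNAs of both groups at almost the same level, and the ratios of cytosolic to mitochondrial isocitrate and malate dehydrogenase, Idh1 to Idh2 and Mdh1 to Mdh2, did not overlap between the groups. Each ratio had a two-sided exact permutation p of 0.1, or 0.2 after adjustment. Among single tested genes, 34.1% did not overlap either.

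The cycle starts when citrate synthase joins acetyl-CoA to oxaloacetate in mitochondria. Aconitase turns citrate into isocitrate by way of cis-aconitate, and isocitrate and 2-oxoglutarate are then oxidised in steps that yield CO2, before succinate, fumarate and malate lead back to oxaloacetate. Macrophages that have met lipopolysaccharide (LPS) switch on Acod1, whose product removes the carboxyl group of cis-aconitate to give itaconate, a metabolite known to inhibit succinate dehydrogenase and to activate the antioxidant regulator NRF2. Several steps have a second enzyme in the cytosol, where Idh1 makes NADPH and Mdh1 serves the malate-aspartate shuttle.

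PEMs are macrophages washed out of the peritoneum some days after starch was injected there, and their RNA was sequenced in 6 libraries. The libraries titled CKO (replicates 1 to 3) had the genotype LysM-Cre; Tim-4 fl/fl, those titled Control (replicates 1 to 3) were Tim-4 fl/fl without Cre, and the labels name lps as the treatment of all 6. The floxed allele is shared by both groups and the mice of the study were young males of the C57BL/6J background. Cre is driven by the lysozyme gene Lyz2, which is active in neutrophils and monocytes as well as macrophages. Lyz2 RNA was itself lower in every CKO library, so the presence of Cre, the lower Lyz2 and the loss of Tim-4 cannot be told apart. The genotype entry of the labels is the other way round from the titles, and the groups follow the titles.

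Between 36170767 and 42217558 reads were recovered per library. Timd4, the targeted gene, counted over the whole transcript and not over the deleted part alone, was at 0.333, 0.394 and 0.246 FPKM (reads per gene, divided by gene length and library depth) in CKO libraries 1 to 3 and at 19.5, 12.0 and 1.19 in Control libraries 1 to 3, so the order of the groups followed the titles and Control 3 lay nearest to CKO (adjusted p = 0.0715 by limma, and 0.0436 with the replicate number as a block, within 0.00041 to 0.235 over the alternatives). Lyz2 was at 41.4, 4656 and 106 FPKM in CKO and at 7090 to 8482 in Control, which set CKO 2 apart, and the reason was not tested. All 7 macrophage markers were present, and their summed level was 2617 to 2892 FPKM in CKO and 2231 to 2694 in Control. Cd68 made up most of this sum and was at 1.51 of Control, while Csf1r and Cd14 were at 0.624 and 0.608, each without overlap and without passing in limma (adjusted p = 0.0989, 0.0903 and 0.0631). Gata6, which defines resident large peritoneal macrophages, was low throughout, at 0.158, 0.780 and 0.273 FPKM in CKO and 1.07, 1.01 and 0.117 in Control. Timd4 is itself counted among the large peritoneal macrophage markers. Within Control, Gata6, Timd4, Prg4 (114, 70.5 and 30.1 FPKM) and Icam2 were lowest in Control 3, while Cd9 was lowest in Control 1. Markers of other cells moved with the groups. The 4 listed B cell markers summed to 2.67 to 5.43 FPKM in CKO and 26.9 to 113 in Control, with 4 of 4 lower by the test, and the 5 mast cell markers to 1.89 to 2.25 and 37.5 to 49.0, with 5 of 5 lower. Neutrophil markers summed to 79.3 to 104 and 183 to 211 FPKM (1 of 4 tested lower), small peritoneal macrophage markers to 195 to 509 and 376 to 835 (1 of 4 lower), large peritoneal macrophage markers to 383 to 485 and 373 to 501 (2 of 5 lower, Prg4 at 0.0433 and Icam2 at 0.281 of Control, with Cd9 making up most of the sum), and mesothelial and fibroblast markers to 10.1 to 23.9 and 2.09 to 10.7. The listed T cell markers stayed at sums of at most 1.13 FPKM and the eosinophil markers at most 1.07. The part of these cells in the results below was not tested, and in bulk RNA fewer cells of a type and less RNA per cell cannot be told apart.

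Acod1 stood far above the other 8 genes. Its mean level was 2395 ± 159 FPKM in CKO and 2511 ± 250 in Control (SD, n = 3), which ranked 21 and 18 among all listed genes. In both groups Mdh2 and Cs followed, at 114 ± 13.2 and 71.6 ± 10.1 FPKM in CKO and at 135 ± 14.5 and 92.7 ± 7.45 in Control. In CKO the next places were those of Mdh1, Ogdh, Idh1, Idh3a, Aco1 and Idh2, where the library ranges of Idh1 and Idh3a and those of Idh3a and Aco1 overlapped, while all other neighbours were apart. In Control, Ogdh and Mdh1 changed places with overlapping ranges, Idh3a and Aco1 overlapped again, and Idh1 stood clear above Idh3a.

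**Figure D1:**
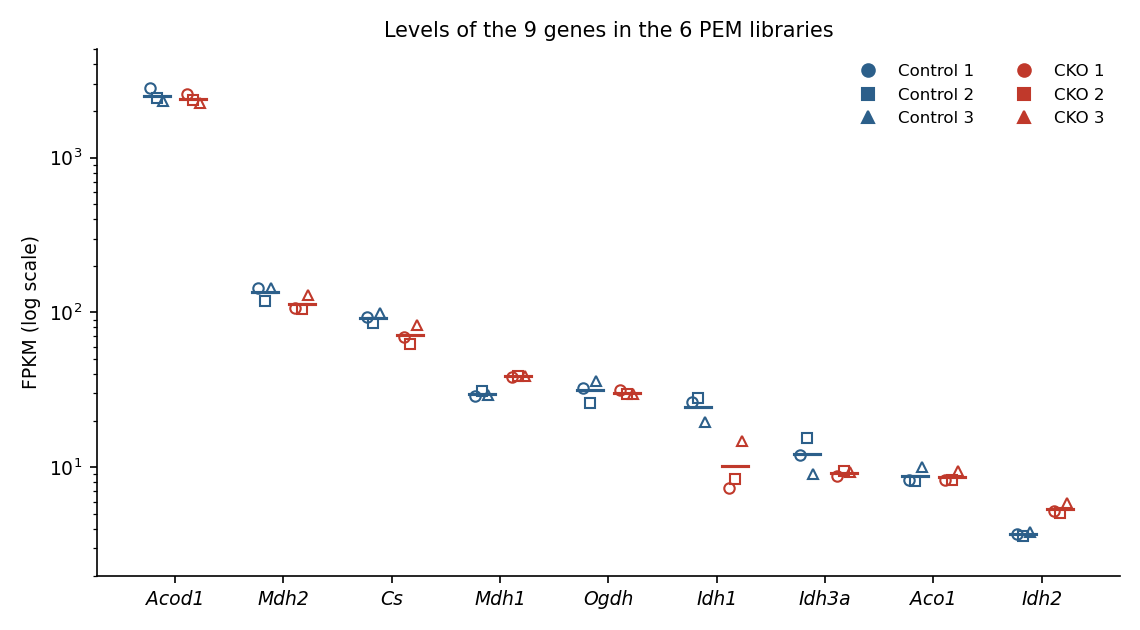
Levels of the 9 genes in FPKM on a log axis, ordered by their mean over both groups. Each symbol is 1 library (circle, square and triangle for replicates 1, 2 and 3), blue for Control and red for CKO, and the bar is the group mean of 3 libraries. Acod1 lies between 2263 and 2797 FPKM in all libraries, and the groups are apart for Cs, Mdh1, Idh1 and Idh2.

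The order depends on the gene length behind each value. The lengths implied by the deposited FPKM lay within 0.881 to 1.15 times the longest coding transcript of GENCODE M21 for 7 of the genes, but reached 3.18 times for Idh2 (5.56 kb against 1.75 kb) and 1.86 times for Ogdh (7.67 kb against 4.13 kb). Per kilobase of that transcript, a scale chosen after the values were seen, Idh2 would stand at 17.2 ± 1.40 in CKO and 11.8 ± 0.365 in Control, and Ogdh at 56.5 ± 1.95 and 58.6 ± 9.21 (SD, n = 3, in the same unit as FPKM). The ratio of the group means of 1 gene does not depend on its length, whereas a fold change of FPKM + 1 does for low genes, so that of Idh2 was 0.44 with a pseudocount of 1 and 0.53 with one of 0.1.

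By limma on log2(FPKM + 1), with p-values adjusted over all 9030 tested genes by the Benjamini-Hochberg method and a threshold of 0.05, 1 of the 9 genes passed, Idh1, which was lower in CKO. Among all tested genes 7.31% passed, 2.57% higher and 4.74% lower in CKO. Of the calls over all genes 35.2% were thus higher, against 51.3% after rescaling the libraries by the median of ratios. The 3 CKO libraries lay on one side of the 3 Control libraries for 4 of the 9 genes, higher for Idh2 and Mdh1 and lower for Cs and Idh1, against 34.1% of all tested genes. The median log2 fold change of the 9 was -0.066, beside -0.11 over all tested genes. That rescaling shifted the overall median by 0.12 to 0.012, and differences relative to the overall median are given beside the test where they matter. No source says that the libraries of a group came from separate mice, so the p-values measure the spread between these libraries only.

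**Figure D2:**
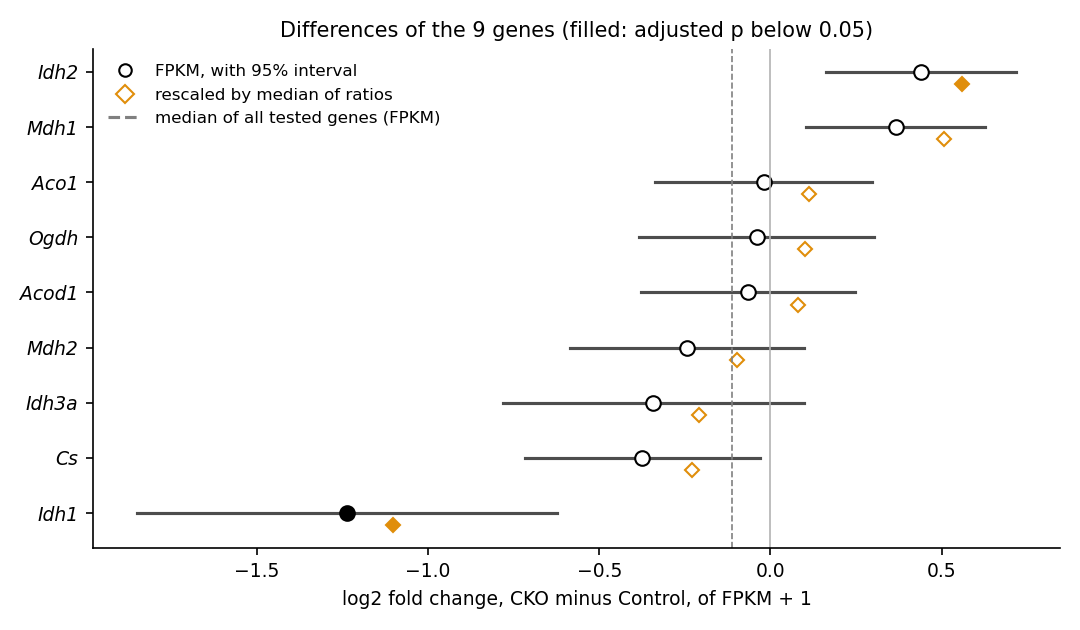
Log2 fold change (CKO minus Control, of FPKM + 1) of the 9 genes. Circles with lines are the values on the FPKM scale with 95% intervals, diamonds the values after rescaling by the median of ratios, filled symbols those with an adjusted p below 0.05, and the dashed line the median of all tested genes (-0.11). Idh1 is at -1.24 and is filled on both scales, Idh2 is filled on the rescaled values only, and Acod1, Aco1 and Ogdh are below 0 on the FPKM scale and above 0 after rescaling.

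Acod1, the itaconate enzyme, was read at great depth, with 218078 to 285693 reads per library. Its level was 2571, 2351 and 2263 FPKM in CKO 1 to 3 and 2797, 2407 and 2329 in Control 1 to 3. The groups overlapped, with Control 1 the highest library and CKO 3 the lowest. The log2 fold change was -0.066 (SE 0.13, 95% interval -0.38 to 0.25, adjusted p = 0.775 by limma) on the FPKM scale and 0.081 after rescaling by the median of ratios or by voom on the recovered reads, so its sign depended on the scaling. A change smaller than this interval was not detectable with 3 libraries per group. The 250 bases before the RefSeq start of Acod1 are shown because this start carries the RNA that dominates the set. They lie at chr14:103046762-103047011 on the + strand of GRCm38.p6, with the letters TATAAA and CCAAT in either direction in capitals.
Acod1: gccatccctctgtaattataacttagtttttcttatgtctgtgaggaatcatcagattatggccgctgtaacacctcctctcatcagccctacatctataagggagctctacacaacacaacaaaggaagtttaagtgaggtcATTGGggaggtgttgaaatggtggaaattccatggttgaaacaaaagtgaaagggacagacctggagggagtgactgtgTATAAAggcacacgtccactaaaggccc

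In this window TATAAA started 28 bases before the RNA start and CCAAT, read on the other strand as ATTGG, 107 bases before it. Of 32851 windows of the same length in the RefSeq table, 12.4% held TATAAA and 33.8% CCAAT on either strand. Windows were found for 8 of the 9 genes, and Idh3a had none in the table. TATAAA was in the Acod1 window and in none of the other 7 genes' windows. The κB consensus GGGRNNYYCC (R for A or G, Y for C or T) was searched on both strands as well. So were GAAANNGAA (the interferon-response core), TGANTCA (AP-1), TGACNNNGC (the antioxidant response element) and TCACNCCAC (the sterol response element). The letters of none of these were in the Acod1 window. The respective shares of all windows were 7.25%, 7.13%, 6.75%, 10.2% and 1.05%.

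Citrate synthase and aconitase stand before the branch to itaconate. Cs was at 69.3, 62.8 and 82.7 FPKM in CKO and at 93.3, 84.9 and 99.8 in Control. Every CKO library was below every Control library, with CKO 3 and Control 2 closest to each other. The log2 fold change of -0.37 (SE 0.15, 95% interval -0.72 to -0.031) did not pass in limma (adjusted p = 0.154), and relative to the median of all genes it was -0.26. Aco1, the cytosolic aconitase, which also acts as the iron sensor IRP1, was at 8.28, 8.24 and 9.55 FPKM in CKO and at 8.23, 8.23 and 10.1 in Control. Replicate 3 was the highest of each group and the groups overlapped. Its log2 fold change was -0.020 on the FPKM scale (95% interval -0.34 to 0.30, adjusted p = 0.938 by limma) and 0.11 after rescaling by the median of ratios.

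Idh1, the NADP-dependent isocitrate dehydrogenase of the cytosol and peroxisomes, fell in CKO. Its level was 7.41, 8.40 and 14.8 FPKM in CKO and 26.3, 28.1 and 19.5 in Control. CKO 1 and CKO 2 were the lowest libraries, replicate 3 was the closest pair across the groups, and the groups did not overlap. These values rested on 759, 865 and 1478 reads in CKO and on 2533, 2667 and 1724 in Control. The mean was 10.2 ± 4.02 FPKM in CKO and 24.7 ± 4.51 in Control (SD, n = 3), a log2 fold change of -1.24 (SE 0.26, 95% interval -1.85 to -0.62, adjusted p = 0.0361 by limma), or -1.125 relative to the median of all genes. With the replicate number as a block the adjusted p was 0.05001, so Idh1 did not pass. The fold change was negative under every alternative run (-1.51 to -1.06), with adjusted p-values from 0.0159 to 0.157. It did not pass without CKO 1 (-1.06, adjusted p = 0.138), CKO 2 (-1.14, 0.157), Control 1 (-1.18, 0.0581) or Control 2 (-1.14, 0.153), and passed without CKO 3 (-1.51, 0.0159) or Control 3 (-1.39, 0.0198).

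Idh2 uses NADP as well but sits in mitochondria. It was at 5.23, 5.07 and 5.90 FPKM in CKO and at 3.69, 3.61 and 3.84 in Control. All CKO libraries were above all Control libraries, and the Control libraries differed little among themselves (SD 0.114 FPKM, n = 3). The mean in CKO was 1.45 times that in Control, with a log2 fold change of 0.44 (SE 0.12, 95% interval 0.16 to 0.72) and 0.55 relative to the median of all genes. The adjusted p by limma was 0.0660, so Idh2 did not pass, whereas it did after rescaling by the median of ratios (0.56, adjusted p = 0.0269) and by voom (0.69, 0.0262), within a range of 0.0262 to 0.222 over all alternatives.

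The windows before the starts of Idh1 and Idh2 are shown together, since the RNAs of these enzymes of the same reaction lay on opposite sides of Control. RefSeq lists a pair of starts for Idh1. The window of the first is chr1:65186480-65186729 and that of Idh2 is chr7:80115351-80115600, both on the - strand of GRCm38.p6 and printed 5′ to 3′ along the gene, with CCAAT and any κB match in capitals.
Idh1: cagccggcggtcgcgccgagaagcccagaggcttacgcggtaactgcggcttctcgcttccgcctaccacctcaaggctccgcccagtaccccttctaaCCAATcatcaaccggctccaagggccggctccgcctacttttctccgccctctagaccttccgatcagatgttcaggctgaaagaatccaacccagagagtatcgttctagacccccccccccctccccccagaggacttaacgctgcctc
Idh2: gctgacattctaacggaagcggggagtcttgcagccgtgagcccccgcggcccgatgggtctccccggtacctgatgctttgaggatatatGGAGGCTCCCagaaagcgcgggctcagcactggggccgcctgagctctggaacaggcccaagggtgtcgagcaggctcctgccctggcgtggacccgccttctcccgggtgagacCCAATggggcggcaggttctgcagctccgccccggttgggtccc

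The G and C content was 61.6% for Idh1 and 67.2% for Idh2, against 44.4% for Acod1. CCAAT started 151 bases before the start in the Idh1 window and 44 bases before it in the Idh2 window. Idh2 also held 1 match to the κB consensus, read on the other strand, 159 bases before the start. Ogdh held 1 as well, in the window of start 4 (GGAGAGCCCC, 135 bases before it). The second Idh1 window held none of the 7 motifs searched. TGACNNNGC was in none of the windows of the 8 genes, which says only that these letters are not in these 250 bases. A match is a description of letters and no evidence of binding.

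Idh3a encodes the catalytic subunit of the NAD-dependent isocitrate dehydrogenase, the form that serves the cycle itself. Its level was 8.80, 9.46 and 9.39 FPKM in CKO and 12.1, 15.4 and 9.10 in Control. The CKO libraries were close together, and Control 3 lay among them, so the groups overlapped. The log2 fold change was -0.34 (SE 0.19, 95% interval -0.78 to 0.098, adjusted p = 0.278 by limma) and moved from -0.52 without Control 3 (adjusted p = 0.0559) to -0.17 without Control 2 (0.570), the ends of its range over the alternatives. Ogdh, the 2-oxoglutarate dehydrogenase of the next step, was at 31.6, 29.7 and 29.9 FPKM in CKO and at 32.4, 26.2 and 36.0 in Control. Control 2 was the lowest and Control 3 the highest of the 6 libraries, with the CKO libraries between them. Its log2 fold change was -0.041 on the FPKM scale (95% interval -0.38 to 0.30, adjusted p = 0.880 by limma) and 0.10 after rescaling by the median of ratios.

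Malate dehydrogenase, which closes the cycle, showed different values for its cytosolic and mitochondrial genes. Mdh1, the cytosolic form, was at 38.4, 38.6 and 39.1 FPKM in CKO and at 28.8, 31.2 and 29.5 in Control. Every CKO library was above every Control library, and the 3 CKO libraries agreed within an SD of 0.353 FPKM. The ratio of the means was 1.30, with a log2 fold change of 0.37 (SE 0.11, 95% interval 0.10 to 0.63, adjusted p = 0.0888 by limma), or 0.48 relative to the median of all genes. Mdh1 did not pass, and its adjusted p after rescaling by the median of ratios was 0.0501 (0.0501 to 0.310 over the alternatives). Mdh2, the mitochondrial form, was at 107, 105 and 129 FPKM in CKO and at 143, 118 and 144 in Control. CKO 3 lay above Control 2, so the groups overlapped, and the log2 fold change of -0.24 (SE 0.15, 95% interval -0.59 to 0.097) did not pass (adjusted p = 0.313 by limma).

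Ratios of 2 genes within a library do not depend on how the libraries are scaled, and 6 pairs were compared, of which the 4 that join 2 of the 9 genes are given. The log2 ratio of Idh1 to Idh2 was 0.50, 0.73 and 1.33 in CKO and 2.83, 2.96 and 2.35 in Control, so every CKO library was below every Control library. The difference was -1.86, a ratio of 1.81 in CKO against 6.56 in Control on the FPKM scale. Counted per kilobase of the longest coding transcript, Idh1 was at 0.471, 0.551 and 0.835 times Idh2 in CKO and at 2.37, 2.59 and 1.70 times Idh2 in Control, so on this scale, chosen after the values were seen, the larger of the pair was Idh2 in every CKO library and Idh1 in every Control library. The log2 ratio of Mdh1 to Mdh2 was -1.48, -1.45 and -1.72 in CKO and -2.31, -1.92 and -2.29 in Control, again without overlap, a difference of 0.62. Idh2 over Idh3a was higher in every CKO library as well, by 0.91 on the log2 scale (0.585 against 0.311). Per kilobase of the longest coding transcript, Idh2 was at 17.2 ± 1.40 and Idh3a at 8.59 ± 0.339 in CKO, and at 11.8 ± 0.365 and 11.4 ± 2.96 in Control (SD, n = 3), where they did not differ beyond their spread. Each of these 3 differences had a two-sided exact permutation p of 0.1, the smallest that 3 against 3 libraries can give, and of 0.2 after Benjamini-Hochberg adjustment over the 6 pairs. Among single tested genes 34.1% did not overlap between the groups either, and this share was not computed for pairs of genes.

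Acod1 over Cs, the itaconate enzyme against the enzyme that makes citrate, was 33.6 in CKO and 27.1 in Control. The log2 ratios were 5.21, 5.23 and 4.77 in CKO and 4.91, 4.82 and 4.54 in Control, with CKO 3 below the highest Control libraries, so the groups overlapped, although CKO was above Control within each of the 3 replicate numbers. The unpaired difference of 0.31 had a two-sided exact permutation p of 0.3, or 0.45 after adjustment over the 6 pairs.

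**Figure D3:**
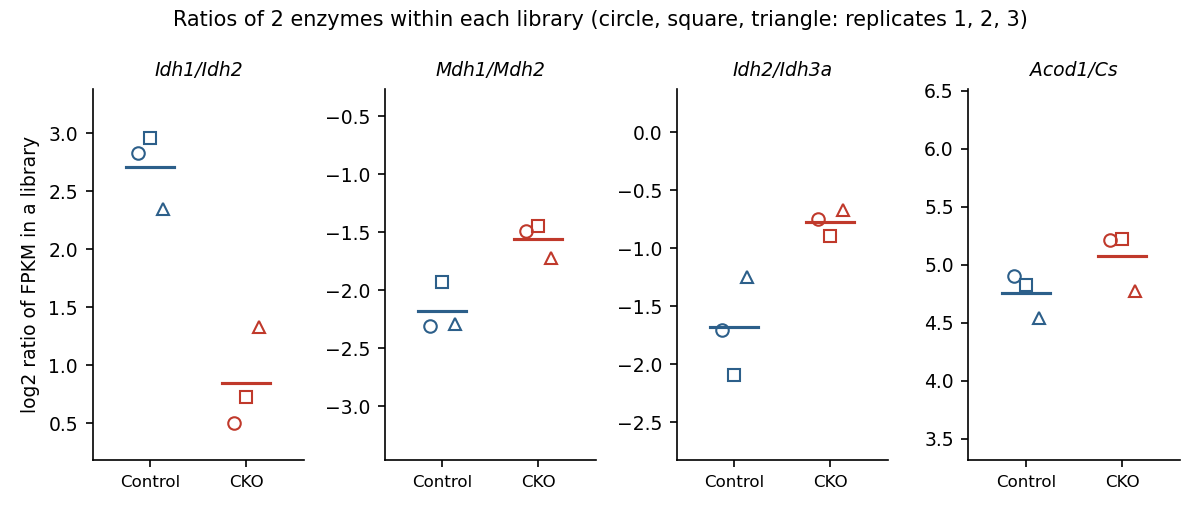
Log2 ratio of the FPKM of 2 genes within each library for 4 pairs, with Control in blue and CKO in red, 1 symbol per library (circle, square and triangle for replicates 1, 2 and 3) and the group mean as a bar. All axes have the same span. The groups are apart for Idh1/Idh2 (difference -1.86), Mdh1/Mdh2 (0.62) and Idh2/Idh3a (0.91) and overlap for Acod1/Cs (0.31).

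The rest of the cycle was read from fixed lists. Of 10 further cycle genes, among them the other subunits of isocitrate and 2-oxoglutarate dehydrogenase, the succinyl-CoA ligases and fumarase, 9 were tested, 0 passed in limma or in voom (beside 7.31% of all tested genes in limma) and 1 had an unadjusted p below 0.05 (beside 27.6%), with a median log2 fold change of -0.15, beside -0.11 over all tested genes, and 2 of the 9 without overlap between the groups, beside 34.1% of all tested genes. The 4 succinate dehydrogenase subunits had a median of 0.0053, and 0 passed in limma or in voom, with 0 at an unadjusted p below 0.05, beside the same 7.31% and 27.6%, which for 4 genes is no result. Across these 2 lists and the 9 genes, the gene that passed was Idh1 in limma and Idh2 in voom.

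In each of the next 3 lists 1 gene passed, beside 7.31% of all tested genes. Among genes that bring pyruvate into the cycle it was 1 of 9 tested, Pcx, which encodes pyruvate carboxylase and refills oxaloacetate. Pcx was at 0.265, 0.226 and 0.545 FPKM in CKO and at 3.61, 2.89 and 3.18 in Control, a log2 fold change of -1.66 (SE 0.14, adjusted p = 0.00494 by limma) that rested on 41 to 96 reads per library in CKO. Of 12 tested genes of refilling and the malate-aspartate shuttle, 1 passed, Me1, the cytosolic malic enzyme, which makes NADPH while turning malate into pyruvate. Me1 was at 0.677, 0.447 and 1.39 FPKM in CKO and at 8.40, 8.89 and 6.83 in Control (-2.32, SE 0.21, adjusted p = 0.00494). CKO 3 was the highest CKO library for Pcx and Me1, as for Idh1, and no groups overlapped. Of 6 genes of citrate export and use, Acss2, which makes acetyl-CoA from acetate, was at 0.781, 0.477 and 1.81 FPKM in CKO and at 4.91, 4.01 and 2.996 in Control and fell by 1.33 on the log2 scale (SE 0.26, adjusted p = 0.0304 by limma). With a pseudocount of 0.1 and by voom the log2 fold changes were -2.96 and -3.16 for Pcx, -3.24 and -3.25 for Me1 and -2.01 and -1.98 for Acss2. Leaving out 1 library ended the call for Pcx (without Control 2, adjusted p = 0.0542), Me1 (without Control 2, 0.0570) and Acss2 (without CKO 1, CKO 2 or Control 2, 0.122 to 0.134). The respective log2 fold changes there were -1.71, -2.26 and -1.32 to -1.13. Acss2 did not pass with no filter (0.0626), with the block and rescaling or by voom (0.0516 each) either, and the p-values without a library were the highest p-values of the 3 genes under any alternative. In the list of 2-hydroxyglutarate and 2-oxoglutarate enzymes, 3 of 6 genes were tested, and 0 passed in limma or in voom, with 0 at an unadjusted p below 0.05, beside 7.31% and 27.6% of all tested genes.

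**Figure D4:**
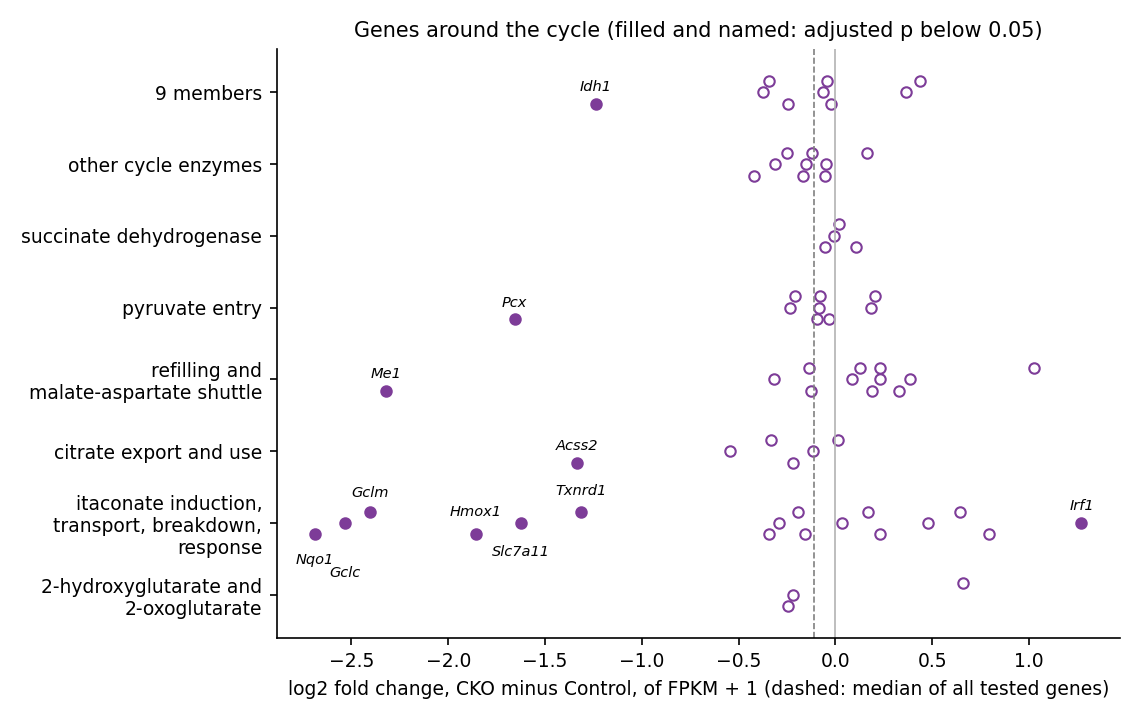
Log2 fold change (CKO minus Control, of FPKM + 1) of the tested genes of 8 lists, 1 point per gene, spread vertically only to separate them. Filled and named points have an adjusted p below 0.05 and the dashed line is the median of all tested genes (-0.11). Apart from Idh1, Pcx, Me1 and Acss2, the named genes are all in the list on itaconate, where Irf1 is at 1.27 and 6 genes are between -2.69 and -1.31.

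Of 17 tested genes for the induction, transport, breakdown and response of itaconate, 1 rose, 6 fell and 10 did not pass, beside 2.57% higher and 4.74% lower of all tested genes. The list was chosen with earlier results of these data known, so this count is a description and no test of the list. The median was -0.19, beside -0.11 over all tested genes. The gene that rose is a regulator of induction, the 6 that fell are antioxidant genes known as NRF2 targets, and the tested genes of transport and breakdown (Auh, Acad8 and Rab32) did not pass. Irf1, the transcription factor known to drive Acod1, was at 187, 180 and 162 FPKM in CKO and at 75.3, 65.6 and 76.7 in Control. All CKO libraries were above all Control libraries by a wide gap, and the log2 fold change was 1.27 (SE 0.13, adjusted p = 0.00651 by limma). Nqo1, a quinone reductase and a classic NRF2 target, was at 2.19, 0.869 and 3.53 FPKM in CKO and at 19.5, 17.9 and 17.6 in Control (-2.69, SE 0.30, adjusted p = 0.00828). Gclc and Gclm, the subunits of the enzyme that starts glutathione synthesis, fell by 2.54 and 2.40 on the log2 scale (adjusted p = 0.0113 and 0.0124 by limma), from 73.0 ± 23.0 to 12.0 ± 4.96 FPKM and from 226 ± 33.6 to 44.7 ± 20.1 FPKM (SD, n = 3).

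The other 3 genes of this list that fell, named after their values were seen, were Hmox1 (-1.86, adjusted p = 0.0196 by limma), Slc7a11 (-1.62, 0.0341) and Txnrd1 (-1.31, 0.0174), which serve haem breakdown, cystine import and thioredoxin reduction. Hmox1 and Slc7a11 did not pass without CKO 1, CKO 2 or Control 2 (adjusted p = 0.0774 to 0.0935 and 0.0896 to 0.151), nor Slc7a11 with no filter on low values (0.0677), and Txnrd1 did not pass without CKO 1 or Control 2 (0.0733 and 0.0987). The gene of NRF2, Nfe2l2, did not pass, at 154 FPKM in CKO and 189 in Control (log2 fold change -0.29, adjusted p = 0.338 by limma), nor did Keap1, which encodes its inhibitor (19.0 against 16.1 FPKM, 0.23, adjusted p = 0.279). Atf3, a transcription factor of stress responses, stood at 259 against 152 FPKM (0.79, adjusted p = 0.0571). Nfe2l2, Keap1, Atf3, Auh, Acad8, Rab32, S100a8, S100a9, Csf3r, Retnlg, Cd68, Csf1r, Cd14, Prg4, Icam2 and Cd9 were also named after their values were seen. Without CKO 1 or without Control 2, none of Irf1, Nqo1, Gclc and Gclm passed in limma (adjusted p = 0.0519 to 0.0883, their highest under any alternative), with respective log2 fold changes of 1.23 and 1.20 for Irf1, -2.73 and -2.71 for Nqo1, -2.55 and -2.54 for Gclc and -2.46 and -2.29 for Gclm. B cell and mast cell markers were lower in CKO. Of the 4 tested neutrophil markers S100a8 fell (54.4 FPKM in CKO against 161 in Control), Retnlg was at 0.412 of Control, lower in every CKO library without passing (adjusted p = 0.0503 by limma), and S100a9 (0.420 of Control) and Csf3r (38.7 against 28.1 FPKM) overlapped between the groups. Their part in the falls was not tested.

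**Figure D5:**
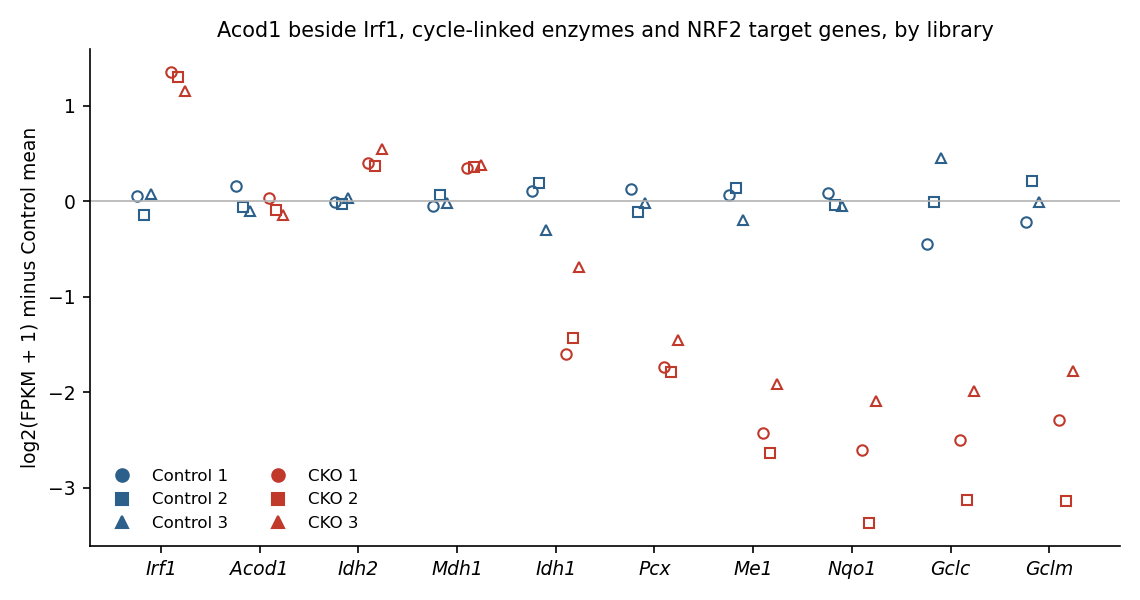
Log2(FPKM + 1) of 10 genes minus the mean of the 3 Control libraries, 1 symbol per library (circle, square and triangle for replicates 1, 2 and 3), blue for Control and red for CKO. Acod1 stays near 0 in all 6 libraries, Irf1, Idh2 and Mdh1 are above Control in all CKO libraries, and Idh1, Pcx, Me1, Nqo1, Gclc and Gclm are below Control in all CKO libraries, with CKO 3 the nearest to Control.

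The genes whose levels over the 6 libraries were most like those of Acod1 and Idh1 were sought among 5459 genes with a mean of at least 5 FPKM, by Pearson's r of log2(FPKM + 1). For Acod1 they were Srpr (r = 0.96), Arhgap31 (0.94), Pde1b (0.94), Nfkbid (0.92) and Hadha (0.92), all of them highest in Control 1. For Idh1 they were Dhx40 (0.997), Adpgk (0.995), Rps27 (0.995), Golim4 (0.994) and Bclaf1 (0.993). Each of these 5 was lowest in CKO 1 and closest between the groups in replicate 3, and 1 of them, Golim4, passed the test (-0.89, adjusted p = 0.0283 by limma, 0.0169 to 0.140 over the alternatives). With 6 points that share libraries and groups, these values describe likeness only.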

How the data were processed

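RNA of PEMs was compared between 3 CKO and 3 Control libraries. The authors deposited 1 table with FPKM per gene and library, a unit inferred from the values, which are reads scaled by gene length and library depth. The signal columns that the authors deposited are group means of read counts after division by the authors' DESeq2 size factors. Columns of the authors' own comparison (ratio, its log2, p and q values) were not used. The submitters' processing notes name the build mm9; aligner, counter and annotation are not given in the sources used here. No mm9 genome was used, and RefSeq sequences of GRCm38.p6 were matched by symbol.

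Reads were recovered from FPKM and group means, and 100% of values under 1000 reads were whole within 0.05. All genes with a mean of at least 1 FPKM in one group were fitted as log2(FPKM + 1) with limma 3.58.1 (lmFit, eBayes with a trend, two-sided) in R 4.3.3, with Benjamini-Hochberg adjustment and a threshold of 0.05. A fold change on this scale understates the change of low genes. Ratios were compared by two-sided exact permutation tests in SciPy 1.17.1. On simulated reads of this comparison, 200 of 200 genes changed 4-fold were called among 8826 tested, with 7 unchanged genes called. The simulation gave every gene the same spread between libraries and held no differences in cell mix. It therefore does not give the error rates of the real data. There, Timd4 and Lyz2 were at 0.0297 and 0.211 of Control and did not pass (adjusted p = 0.0715 and 0.103 by limma).

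The 9 genes, the lists, markers and motifs were chosen with earlier results of these data known. Named are the 9 genes, Timd4, Lyz2, the genes of each list that passed (in a list with more than 6, the 3 with the smallest adjusted p in each direction) and the 5 genes most like Acod1 and Idh1. Others are said to be named after their values were seen. The results of 1 gene of the lists and of the 2 ratios that hold it are not reported here.

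Deviations from the group means correlated at 0.11, 0.11 and 0.30 between libraries of the same replicate number and at -0.33 to 0.29 between others. The 0.29, of CKO 2 with Control 1, exceeded the 0.11 of replicates 1 and 2, and the values are not independent of each other. This check therefore does not establish a pairing, for which no other source was used. A fit with the number as a block was run as an alternative. Other alternatives were no filter, a filter of 10 reads in every library, a pseudocount of 0.1, rescaling by the median of ratios with and without the block, voom on the recovered reads, and each library left out in turn.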

Additional observations from a re-analysis of the deposited data

How the results depend on the processing

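Calls near the threshold changed under the alternatives. Idh1 did not pass with no filter (-1.24, adjusted p = 0.0677), with the replicate block (-1.24, 0.05001), with the block and rescaling by the median of ratios (-1.10, 0.0707) or by voom (-1.17, 0.0516), and ranged from -1.51 to -1.06 with 1 library left out. Idh2 passed after rescaling (0.56), with block and rescaling (0.56) and by voom (0.69). So 0 of the 9 passed with no filter and with the block, 2 after rescaling, and 0 to 1 with 1 library left out. The block changed no other call of the 9 genes, and among other named genes it brought Timd4 past the threshold (adjusted p = 0.0436). Signs turned for Acod1 (0.081 after rescaling, with block and rescaling, and by voom), Aco1 (0.11, 0.11 and 0.12) and Ogdh (0.10, 0.10 and 0.11). With 1 library left out Acod1 ranged from -0.12 to 0.014, Aco1 from -0.082 to 0.068 (0.0097 without CKO 1, 0.013 without CKO 2) and Ogdh from -0.16 to 0.058; the cause was not tested.

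The citrate list had 0 calls with no filter, with block and rescaling, and by voom, and 0 to 2 with 1 library left out, where the other cycle enzymes had 0 to 1, pyruvate entry 0 to 1, refilling 0 to 2 and the itaconate list 0 to 8. Over all genes, 660 passed, 446 with no filter, 855 with the block and 8 (without Control 2) to 1278 (without Control 3) with 1 library left out, among them 30 without CKO 1 and 63 without CKO 2. Of these calls 35.2% were higher in CKO, 51.3% after rescaling, 50.6% by voom and 58.5% with block and rescaling. Each of the 9 genes had at least 759 reads in every library, and 3 libraries per group limit the precision.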

Other observations

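The pentose phosphate pathway is another source of NADPH in the cytosol, and its genes were looked at after the values of Idh1 and Me1 were seen. Pgd, which makes NADPH in the step from 6-phosphogluconate, was at 244, 184 and 297 FPKM in CKO and at 549, 486 and 550 in Control. The groups did not overlap, and the log2 fold change was -1.15 (SE 0.19, adjusted p = 0.0196 by limma over all tested genes, 0.0170 to 0.0930 over the alternatives). Taldo1, a transaldolase, was at 206 ± 41.9 FPKM in CKO and 379 ± 72.5 in Control (SD, n = 3), a log2 fold change of -0.88 (adjusted p = 0.0443 by limma, 0.0256 to 0.183 over the alternatives). Neither passed without CKO 1, CKO 2 or Control 2, nor did Taldo1 with no filter on low values. G6pdx, the entry enzyme, was lower in every CKO library, at 75.9, 76.7 and 93.7 FPKM against 111, 96.6 and 110 in Control, but did not pass (-0.37, adjusted p = 0.142 by limma), and Tkt did not pass either (-0.33, adjusted p = 0.213). Mthfd2, a mitochondrial folate enzyme, was at 100, 91.5 and 126 FPKM in CKO and spread from 34.4 to 127 in Control (log2 fold change 0.62, adjusted p = 0.376 by limma).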
